A study of Mus musculus with 21 samples.

Results

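Collagen genes were followed through RNA sequencing of mouse epidermal keratinocytes, the cells of the skin's outer layer and its hair follicles. Members were chosen by symbol alone: a locus was taken if its gene name has the form Col, a number, a and a number. This gave 44 genes of 43945 loci in the table of 3 populations, and the same 44 symbols were found in both tables of cultured cells. No expression value entered that rule, but the family was picked for study from its levels in these same tables, so its levels and the authors' calls are given as a description. The genes were grouped by known structure into 11 fibrillar, 9 basement membrane, 4 transmembrane and 20 other collagens.

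The series holds 21 libraries of polyadenylated RNA in 7 groups of 3. Cultured hair follicle stem cells (HFSCs), HFSCs purified by flow sorting and total epidermal cells, all wild type, make up the 3-population table. That table names its populations CD34a6, HFSC and bulk. Bulk was read as total epidermal cells, whereas the labels do not say which of CD34a6 and HFSC holds the sorted and which the cultured cells, so both are used here as column names only. The other groups came from 3C cultures, in which total epidermal cells are grown for 10 to 14 days under conditions that maintain HFSCs, and the labels give no genotype for them. They are the CD34+ alpha-6 integrin+ fraction and the CD34neg alpha-6 integrin+ fraction of such cultures, and cultures kept for 48 h with dorsomorphin, an inhibitor of BMP type I receptors and of AMP-activated protein kinase, or with cyclopamine, an inhibitor of Smoothened in the Hedgehog pathway. HFSCs are sorted on the surface proteins CD34 and alpha-6 integrin, and there was no untreated culture in the drug table. The submitters set out to identify both fractions and to find early changes under dorsomorphin, described as depleting HFSCs, and cyclopamine, described as enriching them.

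Collagens are triple helices of 3 polypeptide chains, and most types need particular chains to be made together. Fibrillar collagens build the ropes of the dermis and are made mainly by fibroblasts. Type IV collagen is the mesh of the basement membrane beneath basal keratinocytes, type VII forms the anchoring fibrils that tie this membrane to the dermis, and type XVIII carries heparan sulphate chains in the membrane. Type XVII is a transmembrane protein of the hemidesmosome, the junction that holds basal keratinocytes and HFSCs to the membrane. Loss of type VII or type XVII causes blistering of the skin in humans and mice.

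Expression is given in FPKM, fragments per transcript length and sequencing depth, as 1 value per locus and population that the authors estimated over the replicates. No spread between libraries can therefore be set beside a value, read depth is unknown, and every FPKM below is the authors' own. The labels do not say whether replicates came from separate mice or cultures, and the p-values may then reflect technical variation alone. A gene is said to be called higher or lower, or to have risen or fallen, where the authors' deposited table gives it an adjusted p under 0.05. The smallest adjusted p that the 3-population table holds is 0.000212, and most collagen calls there sit at it. Each table is described by itself. Of 6 keratinocyte markers, all were above 1 FPKM in CD34a6, HFSC and bulk, but their levels differed. Krt5, a keratin of basal keratinocytes, stood at 6493.6 FPKM in CD34a6, 6892.9 in HFSC and 4960.2 in bulk, and the cell adhesion gene Cdh1 at 128.5, 146.2 and 195.8. Krt14, the partner of Krt5, was at 1256.9, 8295.7 and 3419.7 FPKM, and Krt15, a keratin of HFSCs, at 9922.7, 37.9 and 4791.4. Krt10 and Krt1, keratins of differentiated layers, were called lower than bulk in both CD34a6 and HFSC.

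The stretches just upstream of 4 members are shown because the results turn on these genes. Col17a1 and Col18a1 were the most abundant collagens called higher than bulk in both CD34a6 and HFSC, and Col6a1 and Col6a2 are neighbouring genes that were high in CD34a6 and near 0 in HFSC. Each sequence ends at the base before the outermost annotated base of the gene, is read 5′ to 3′ along the gene's strand (minus for all 4) and comes from RefSeq's promoter windows on GRCm38.p6, which were found for 35 of the 44 members. Capitals mark matches to GGGCGG, a GC box, or CCAAT, searched on both strands, and TGANTCA, the AP-1 element, was searched in the same way.
Col17a1, chr19:47692095-47692292: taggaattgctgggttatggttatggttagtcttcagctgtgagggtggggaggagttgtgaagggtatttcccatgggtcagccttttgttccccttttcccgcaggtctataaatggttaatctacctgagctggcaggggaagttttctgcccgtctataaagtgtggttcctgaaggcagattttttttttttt
Col18a1, chr10:77166549-77166780: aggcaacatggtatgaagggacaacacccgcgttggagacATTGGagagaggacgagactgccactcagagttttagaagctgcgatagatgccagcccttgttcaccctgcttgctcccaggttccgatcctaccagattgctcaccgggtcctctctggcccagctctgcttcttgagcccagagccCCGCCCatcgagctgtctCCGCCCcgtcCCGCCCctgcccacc
Col6a1, chr10:76726169-76726294: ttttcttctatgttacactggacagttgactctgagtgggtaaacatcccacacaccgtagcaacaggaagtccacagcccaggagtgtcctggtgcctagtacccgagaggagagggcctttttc
Col6a2, chr10:76623631-76623880: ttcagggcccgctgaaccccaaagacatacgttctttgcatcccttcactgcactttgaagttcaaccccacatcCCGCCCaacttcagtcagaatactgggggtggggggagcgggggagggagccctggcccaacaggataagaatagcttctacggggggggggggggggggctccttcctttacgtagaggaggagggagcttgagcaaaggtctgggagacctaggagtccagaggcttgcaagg

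The 198 bases before Col17a1 held none of the 3 motifs. The 232 bases before Col18a1 held 3 GC boxes and 1 CCAAT, against a GC box in 30.1% and a CCAAT in 32.4% of 32841 RefSeq windows over the same number of bases. Col6a1 had no match in 126 bases, and Col6a2 had 1 GC box in 250 bases, as 32.7% of windows did. TGANTCA was in none of the 4, and in 3.24% to 6.75% of windows of these lengths. Col6a2 and Col6a1 lie on the same strand of chromosome 10, 85161 bases apart. A match describes letters only.

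Collagen transcripts were most abundant in CD34a6. Their FPKM summed to 2332.6 in CD34a6, 1525.7 in HFSC and 428.8 in bulk, which is 0.574%, 0.316% and 0.0468% of all FPKM in the population. At least 1 FPKM was reached by 22 members in CD34a6, 12 in HFSC and 17 in bulk. Col17a1 alone made up 56.2%, 71.0% and 62.6% of the collagen FPKM. Without it the sums were 1022.3, 441.9 and 160.2 FPKM, so the order of the populations was the same.

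**Figure D1:**
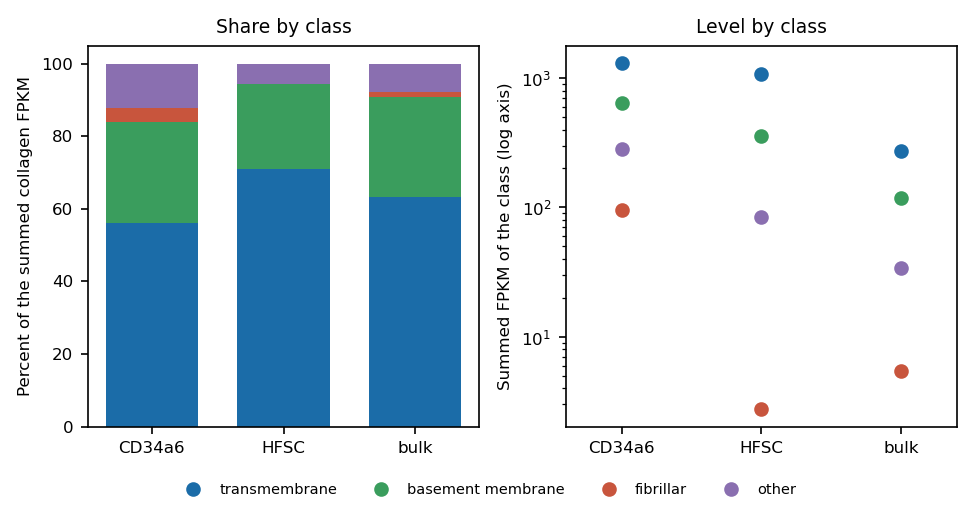
Share of the summed collagen FPKM taken by each class (left, percent, stacked from 0) and the summed FPKM of each class on a log axis (right) in the 3 populations of the first table, 1 value per population and no error. Fibrillar collagens summed to 94.8 FPKM in CD34a6, 2.75 in HFSC and 5.47 in bulk, while the other classes were lowest in bulk.

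The classes did not move together. Basement membrane collagens summed to 643.8 FPKM in CD34a6, 355.1 in HFSC and 118.5 in bulk, and the transmembrane class to 1311.0, 1083.9 and 270.9. Fibrillar collagens were the exception to the order, with their lowest sum in HFSC. In whole tissue or mixed cells, fewer cells of a type and less RNA per cell cannot be told apart, and this holds for every level given here.

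Col17a1, the hemidesmosome collagen (chr19:47646344-47692094 in GENCODE vM21), was the most abundant collagen in every population of every table. It stood at 1310.3 FPKM in CD34a6, 1083.8 in HFSC and 268.6 in bulk. CD34a6 was 4.88-fold and HFSC 4.04-fold above bulk, both called higher in the authors' deposited table. The ratio of HFSC to CD34a6, 0.827, did not pass there (adjusted p = 0.323). Col23a1, a transmembrane collagen of cell surfaces, ran the other way: it was at 0.646 FPKM in CD34a6, 0.154 in HFSC and 2.30 in bulk, and was called lower in both against bulk. Col13a1 was listed at 0 in all 3 populations, and Col25a1, the collagen of amyloid plaques, was at most 0.0185 FPKM.

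Among the basement membrane collagens, Col18a1 (chr10:77052178-77166548) was also high in both CD34a6 and HFSC. It stood at 223.5 FPKM in CD34a6, 206.4 in HFSC and 23.4 in bulk, 9.57-fold and 8.83-fold above bulk, and both were called higher in the authors' deposited table. The locus span of Col18a1 also carries Slc19a1, a folate transporter gene. Col7a1, the anchoring fibril gene, was at 290.6 FPKM in CD34a6, 105.7 in HFSC and 65.0 in bulk. It rose 4.47-fold in CD34a6 over bulk, whereas the 1.63-fold ratio of HFSC to bulk did not pass (adjusted p = 0.241, authors' deposited table). Col15a1, a relative of Col18a1, was at 0.409 FPKM in CD34a6, 0.00730 in HFSC and 1.29 in bulk and passed in neither comparison with bulk.

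The 6 type IV chains are encoded as 3 pairs that lie head to head, each pair sharing the DNA between its starts. In GENCODE vM21, Col4a1 and Col4a2 on chromosome 8 overlap by 22 bases at their starts, Col4a4 and Col4a3 on chromosome 1 start 71 bases apart, and Col4a6 and Col4a5 on the X chromosome start 1308 bases apart. The chains of the first pair form the form of type IV found in nearly all basement membranes. Col4a1 stood at 30.1 FPKM in CD34a6, 12.2 in HFSC and 2.97 in bulk, and Col4a2 at 32.3, 17.9 and 3.24. Both genes were called higher than bulk in CD34a6 and in HFSC, and lower in HFSC than in CD34a6. The deposited table gives these genes 1 shared locus span, so how reads were divided between them cannot be seen.

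In the other pairs too, levels were highest in CD34a6. Col4a3 and Col4a4, chains best known from kidney, were at 6.73 and 12.0 FPKM in CD34a6, 0.768 and 0.755 in HFSC, and 0.917 and 0.665 in bulk. The 18.1-fold difference of CD34a6 over bulk was called for Col4a4, while the 7.34-fold difference of Col4a3 did not pass (adjusted p = 0.0522, authors' deposited table), at a span it shares with Mff and other symbols. Col4a5 stood at 34.2 FPKM in CD34a6, 10.3 in HFSC and 15.4 in bulk, and its partner Col4a6 at 13.9, 1.01 and 5.66. Both rose in CD34a6 over bulk, by 2.22-fold and 2.46-fold, and in HFSC only Col4a6 was called lower than bulk (adjusted p = 0.0906 for Col4a5, authors' deposited table). The ratio of Col4a5 to Col4a6 FPKM was 2.45 in CD34a6, 10.2 in HFSC and 2.72 in bulk, and that of Col4a2 to Col4a1 was 1.07, 1.46 and 1.09.

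**Figure D2:**
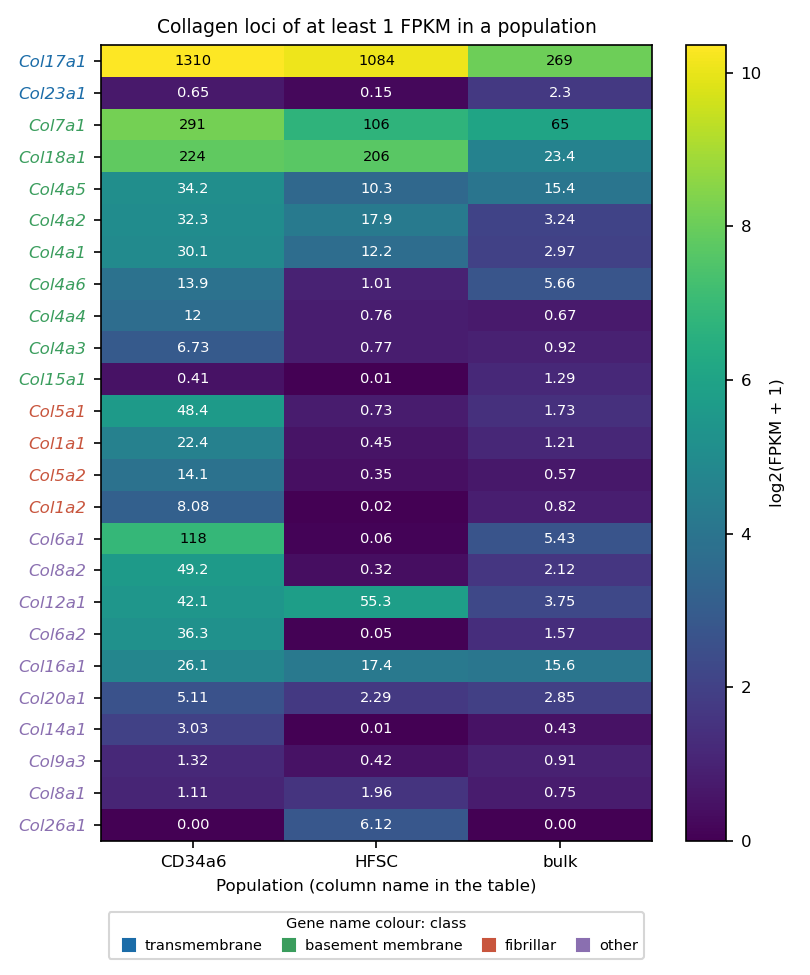
FPKM of the 25 collagen loci that reach 1 FPKM in CD34a6, HFSC or bulk, printed in each cell and coloured by log2(FPKM + 1), 1 value per population, with gene names coloured by class. Col17a1, Col18a1 and Col12a1 are high in both CD34a6 and HFSC, while Col6a1, Col6a2, Col8a2 and the fibrillar genes are high in CD34a6 alone.

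Several fibrillar collagens were high in CD34a6 and low in both HFSC and bulk. Col5a1 and Col5a2, the chains of type V, which regulates fibril diameter, were at 48.4 and 14.1 FPKM in CD34a6, 0.729 and 0.346 in HFSC, and 1.73 and 0.574 in bulk. Col1a1 and Col1a2, the chains of type I, the main collagen of dermis and bone, were at 22.4 and 8.08 FPKM in CD34a6, 0.447 and 0.0223 in HFSC, and 1.21 and 0.825 in bulk. All 4 were called higher in CD34a6 than in bulk in the authors' deposited table, by 9.79-fold for Col1a2 to 27.9-fold for Col5a1. HFSC was called lower than CD34a6 for Col5a1 (66.3-fold), Col1a1 (50.1-fold) and Col5a2 (40.6-fold), and the deposited adjusted p for Col1a2 was 0.103. Against bulk, HFSC was called lower for Col5a1 only, by 2.37-fold.

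Col3a1, the fibrillar collagen that accompanies type I in dermal fibroblasts, did not follow these genes. It was listed at 0 in CD34a6 and in HFSC and stood at 0.281 FPKM in bulk. Col2a1, Col5a3, Col11a1, Col11a2, Col24a1 and Col27a1 stayed at or below 0.758 FPKM in all 3 populations. Of these, Col27a1 was called lower in HFSC than in CD34a6, at 0.197 against 0.729 FPKM.

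Because fibroblasts make most fibrillar collagen, markers of other cells are given beside these values. Of 9 fibroblast markers, Lum and Twist2 were listed at 0 in CD34a6, and Pdgfra and Dpt were at 0.0410 and 0.00805 FPKM there. Vim, at 5.53 FPKM in CD34a6 against 56.6 in bulk, and Thy1, at 2.24 against 17.6, were called lower in CD34a6. Fbln1, at 58.4 against 10.4 FPKM, and Postn, at 627.5 against 31.3, were called higher in CD34a6, and both encode secreted matrix proteins. Dcn, at 2.58 against 1.99 FPKM, did not pass. Of 5 tested fibroblast markers, 2 were thus called higher in CD34a6 than in bulk, beside 22% of all tested loci. The 2 called lower stood beside 24.3%. Col1a1, Col5a1 and Col5a2 fell in HFSC against CD34a6. In that comparison, 4 of 5 tested fibroblast markers were called lower, beside 29% of all tested loci, and 0 higher, beside 25.2%. They were Dcn (0.0358 FPKM in HFSC against 2.58 in CD34a6), Vim (0.588 against 5.53), Fbln1 (10.8 against 58.4) and Postn (55.7 against 627.5), while Thy1, at 0.0146 against 2.24, did not pass. The 9 markers summed to 696.3 FPKM in CD34a6 and 67.2 in HFSC, mostly through Postn. In bulk they summed to 117.9 FPKM, with Vim, at 56.6, above Postn, at 31.3. The 5 immune markers summed to 5.29 FPKM in CD34a6, 1.29 in HFSC and 316.1 in bulk. The 5 endothelial and mural markers summed to 0.387 FPKM in CD34a6, 1.02 in HFSC and 0.280 in bulk. The 6 melanocyte markers summed to 8.58 FPKM in CD34a6, 0.597 in HFSC and 6.91 in bulk. The part of these cells in the collagen levels was not tested.

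Among the remaining collagens, type VI chains differed widely in level from each other. Col6a1 and Col6a2, chains of the beaded filaments around cells, were at 118.3 and 36.3 FPKM in CD34a6, 0.0600 and 0.0483 in HFSC, and 5.43 and 1.57 in bulk. Both rose in CD34a6 over bulk, by 21.8-fold and 23.2-fold, and both fell in HFSC relative to CD34a6 and to bulk in the authors' deposited table. Col6a3, whose chain joins theirs in the usual type VI molecule, was at only 0.0271 FPKM in CD34a6, 0.0269 in HFSC and 0.388 in bulk and was not tested. Col6a4, Col6a5 and Col6a6, which encode alternatives to that chain, were at most 0.0274 FPKM. CD34a6 thus had 2 chains of type VI above 30 FPKM and the other 4 near 0. The span of Col6a3 also carries Gm36970.

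Col8a2, a short chain collagen known from the basement membrane of the cornea, followed the type VI pattern with 49.2 FPKM in CD34a6, 0.319 in HFSC and 2.12 in bulk. It was called higher in CD34a6 and lower in HFSC than in bulk. Its partner Col8a1 stood at 1.11, 1.96 and 0.751 FPKM and was called higher in HFSC against each of the other populations. The ratio of Col8a2 to Col8a1 FPKM was therefore 44.4 in CD34a6, 0.162 in HFSC and 2.82 in bulk.

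Col12a1, a collagen that sits on the surface of fibrils, was high in both CD34a6 and HFSC. It was at 42.1 FPKM in CD34a6, 55.3 in HFSC and 3.75 in bulk, and both ratios to bulk, 11.2 and 14.7, were called. Col14a1, its relative, was at 3.03, 0.00910 and 0.431 FPKM and was called higher in CD34a6 than in bulk. Col16a1, another fibril-associated collagen, passed in no pair of the authors' deposited table, at 26.1 FPKM in CD34a6, 17.4 in HFSC and 15.6 in bulk. Col20a1 stood at 5.11, 2.29 and 2.85 FPKM and was called lower in HFSC than in CD34a6. Col26a1 was the only member of at least 1 FPKM in HFSC alone, at 6.12 FPKM, and was listed at 0 in both CD34a6 and bulk. Col9a3, at 1.32 FPKM in CD34a6, 0.422 in HFSC and 0.914 in bulk, fell in HFSC relative to CD34a6, and its span also carries Tcfl5. Col9a1, Col9a2, Col10a1, Col19a1, Col22a1 and Col28a1 stayed at or below 0.373 FPKM.

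**Figure D3:**
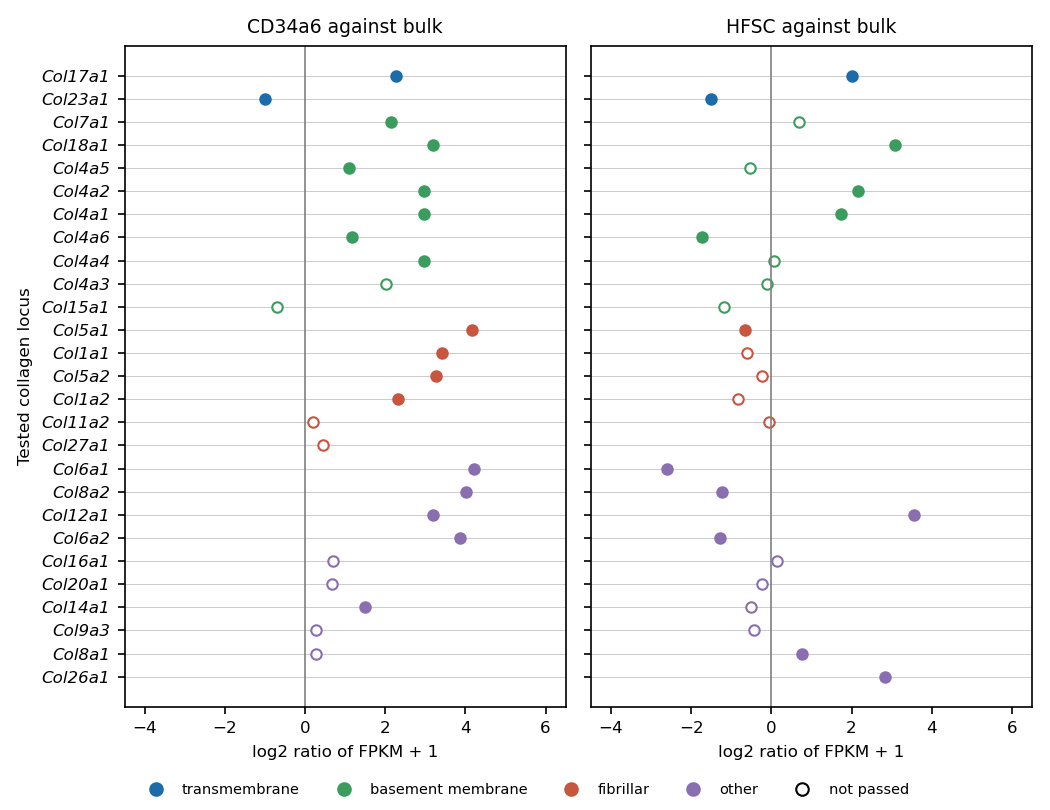
Difference in log2(FPKM + 1) of each tested collagen locus, CD34a6 minus bulk (left) and HFSC minus bulk (right), coloured by class, filled where the authors' deposited table calls the locus and open where it does not. In CD34a6, 17 of 18 filled points lie right of 0, while in HFSC the type VI genes, Col8a2, Col4a6, Col5a1 and Col23a1 lie left of it.

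Counted over the family, 26 of the 44 members were tested in CD34a6 against bulk. Of these, 17 were called higher in the authors' deposited table, where 22% of all 14441 tested loci were higher, and 1 was called lower, where 24.3% were. In HFSC against bulk, 7 of 26 were called higher, beside 19% of all tested loci, and 6 were called lower, beside 24.7%. In HFSC against CD34a6, 2 of 26 were called higher, beside 25.2%, and 17 lower, beside 29%. The 3 comparisons share their populations, and a member had to reach a testable level to be counted. Col4a1, Col4a2, Col12a1, Col17a1 and Col18a1 were called higher than bulk in both CD34a6 and HFSC. Col4a6, Col5a1, Col6a1, Col6a2 and Col8a2 were called higher in CD34a6 and lower in HFSC.

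The median log2 difference of the tested members, with 1 FPKM added to each value, was 2.21 for CD34a6 over bulk, where all tested loci had 0.0029. For HFSC over bulk it was -0.225 beside -0.108, and it turned to 0.32 when FPKM was scaled to the same sum in each population. For HFSC over CD34a6 it was -1.34 beside -0.0748. Such scaling moved the median of all tested loci to 1.00, 0.66 and -0.305 in these comparisons, since the FPKM sums of the populations differ, at 406723.2 in CD34a6, 482175.4 in HFSC and 917078.0 in bulk. In log2 ratios without the added 1 FPKM, the scaling shifts every gene equally, so it turns the sign of small differences only. In HFSC against bulk these were Col4a3, Col4a5, Col5a2, Col11a2 and Col20a1, none of which had passed.

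Collagen transcripts are long, and in both comparisons with bulk, calls of higher were more frequent among long genes than among all tested loci. The 26 tested members had a median exonic length of 7017 bases in GENCODE vM21, against 3987.5 for all tested loci. Other tested genes of 6402 to 9315 bases, the middle range of the members, were called higher in CD34a6 than in bulk in 32.1% of cases and lower in 15.8%, with a median log2 difference of 0.33. For HFSC against bulk the middle range was 6402 to 8449 bases, and genes within it were called higher in 26.8% and lower in 16.7%. For HFSC against CD34a6 (6577 to 9315 bases) these shares were 25.3% and 32.2%, beside 25.2% and 29% of all tested loci. For CD34+ against CD34neg (6668 to 8900 bases) they were 3.5% and 0.99%, beside 2.08% and 4.71%. For dorsomorphin against cyclopamine (6693 to 9933 bases) they were 1.2% and 0.78%, beside 1.26% and 1.31%. The part of length in the collagen values was not tested.

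Genes that modify, fold and trim collagen were described from a list of 31 in the tables, counted as loci, since Mia3, a gene for the export of collagen from the endoplasmic reticulum, has 2 loci and both were tested. In CD34a6 against bulk, 15 of 26 tested loci were called higher, beside 22% of all tested loci, and 3 lower, beside 24.3%. The 4 most abundant of those called were P4hb, a subunit of prolyl 4-hydroxylase, at 167.8 FPKM in CD34a6 against 474.2 in bulk, Ppib, a prolyl isomerase, at 195.6 against 465.1, Sparc, a collagen-binding protein of the matrix, at 234.2 against 42.5, and Serpinh1, the collagen chaperone HSP47, at 167.1 against 36.5. Thus P4hb and Ppib, which also act on other secreted proteins, were lower in CD34a6, while Sparc and Serpinh1 were higher.

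In HFSC against bulk, 11 of 24 tested loci of that list were called higher, beside 19% of all tested loci, and 3 lower, beside 24.7%. P4hb was at 246.4 FPKM in HFSC against 474.2 in bulk, Ppib at 202.8 against 465.1, Serpinh1 at 147.1 against 36.5, and Bmp1, the protease that removes procollagen C-propeptides, at 44.2 against 10.0. Serpinh1 was thus called higher in HFSC than in bulk, while Col5a1, Col6a1 and Col6a2 were called lower. In HFSC against CD34a6, 8 of 28 were called higher and 7 lower, close to the 25.2% and 29% of all tested loci. P4hb (246.4 against 167.8 FPKM), Bmp1 (44.2 against 28.1) and the galactosyltransferase gene Colgalt1 (36.9 against 27.7) were higher, and Sparc (3.49 against 234.2) was lower.

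**Figure D4:**
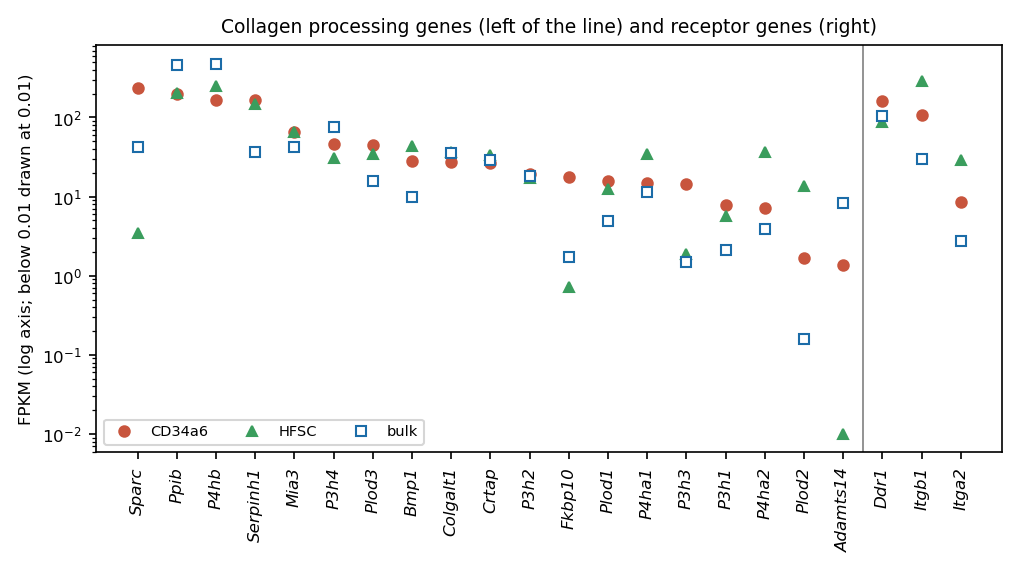
FPKM on a log axis of the 19 collagen processing genes and 3 collagen receptor genes that reach 5 FPKM in CD34a6, HFSC or bulk, ordered by the CD34a6 value, 1 value per population and, where a symbol has several loci, the highest. Sparc stands at 234.2 FPKM in CD34a6 and 3.49 in HFSC, and Serpinh1 at 167.1 and 147.1.

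Of 8 collagen receptor genes, 6 were tested in each pair of this table. Itgb1, the beta-1 integrin subunit, was at 106.9 FPKM in CD34a6, 285.2 in HFSC and 29.9 in bulk, and Itga2, which pairs with it to bind collagen, at 8.66, 29.2 and 2.76. Both were called higher in CD34a6 and in HFSC than in bulk, and higher in HFSC than in CD34a6. Ddr2, a receptor kinase for fibrillar collagen, was called lower than bulk in both, at 0.855 and 1.42 FPKM against 3.50. Mrc2, an endocytic collagen receptor, was at 3.59 FPKM in CD34a6, 0.460 in HFSC and 1.27 in bulk, called higher in CD34a6 and lower in HFSC. Ddr1, the epithelial receptor kinase, fell to 87.1 FPKM in HFSC, against 161.3 in CD34a6. In all, 3 rose and 1 fell in CD34a6 over bulk, and 2 rose and 2 fell in each of the HFSC comparisons. Of all tested loci, 22% were higher and 24.3% lower in CD34a6 over bulk, 19% and 24.7% in HFSC over bulk, and 25.2% and 29% in HFSC over CD34a6.

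Over the 3 populations, the loci most like Col17a1 were found among 6322 loci by the largest difference of log2(FPKM + 1) after centring. They were the merged locus of Egfl7, Fam69b and Gm20532 (13.2, 10.7 and 1.93 FPKM in CD34a6, HFSC and bulk, difference 0.0047), Nek6 (5.60, 4.60 and 0.420, difference 0.0332), Etv4 (18.3, 14.8 and 2.76, difference 0.0444), Lpcat1 (7.70, 6.26 and 0.693, difference 0.0574) and Stx2 (8.24, 6.60 and 1.02, difference 0.0642). These are a description over 3 values each. The added 1 FPKM shrinks the ratios to bulk most for Nek6 and Lpcat1, which were below 1 FPKM there.

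In 3C cultures, Col4a2 was the collagen called between the CD34+ and CD34neg fractions. Of 11 members tested, 1 was called higher in CD34+, beside 2.08% of all 11370 tested loci, and 0 were called lower, beside 4.71%. At an unadjusted p under 0.05 in the deposited table, which has the Cuffdiff layout, 3 of the 11 were higher, beside 8.69% of all tested loci, and 0 lower, beside 13.9%. The 3 were Col4a1 and Col4a2, which share 1 locus span, and Col4a3. Col4a2 was at 7.85 FPKM in CD34+ against 2.17 in CD34neg, a 3.62-fold difference (adjusted p = 0.00275, authors' deposited table). Its partner Col4a1 was at 2.66 against 0.807 FPKM and did not pass (adjusted p = 0.0863, authors' deposited table). Col4a3 was at 1.90 against 0.359 FPKM, a 5.27-fold difference that did not pass (adjusted p = 0.206, authors' deposited table). Col4a5 was at 4.38 FPKM in CD34+ against 5.02 in CD34neg.

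The 4 most abundant collagens of these fractions did not pass. Col17a1 was at 339.1 FPKM in CD34+ against 262.1 in CD34neg, and Col12a1, the runner-up, at 171.4 against 112.2. Col7a1 was at 41.9 against 41.7 FPKM and Col18a1 at 24.8 against 17.8. Fibrillar collagens summed to 1.29 FPKM in CD34+ and 0.549 in CD34neg, with no member tested, and all collagens to 607.0 FPKM in CD34+ and 453.6 in CD34neg. The median log2 difference of the tested members was 0.37, beside -0.0706 for all tested loci. Scaling to equal sums moved these medians to 0.78 and 0.31. Without the members whose locus span carries other symbols, the unscaled median of the remaining tested members was 0.0063.

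Sparc, at 10.3 FPKM in CD34+ against 1.43 in CD34neg, and Tll1, a relative of Bmp1, at 3.32 against 1.39, were the 2 processing genes called of 19 tested loci, beside the 2.08% higher over all loci, and Ddr1, at 12.9 against 7.28, the 1 receptor gene of 3. Postn was also called higher in CD34+, at 198.1 against 72.3 FPKM. Fbln1 was at 10.9 against 6.03 FPKM and did not pass, and Vim was at 0.931 against 0.927. Pdgfra, at 0.0375 against 0.0309 FPKM, Dpt, at 0.0316 against 0, and Dcn, at 0 against 0.0462, were near 0, and Lum, Thy1 and Twist2 were listed at 0 in both fractions. The 9 fibroblast markers summed to 209.9 FPKM in CD34+ and 79.3 in CD34neg, and their part in the collagen values was not tested.

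**Figure D5:**
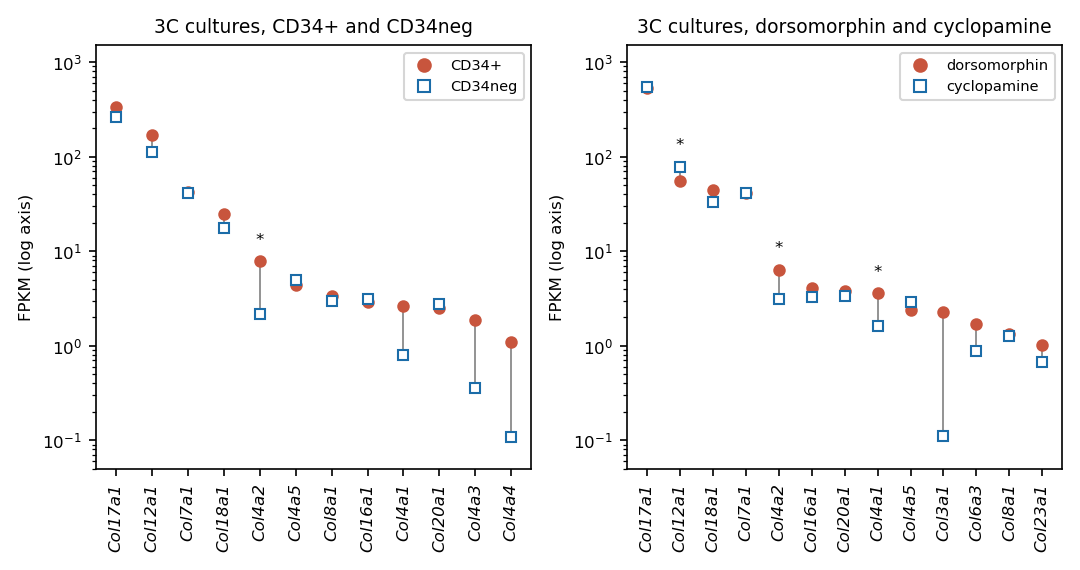
FPKM on a log axis of every collagen locus that reaches 1 FPKM in the CD34+ or CD34neg fraction (left) and with dorsomorphin or cyclopamine (right), 1 value per population, with an asterisk where the authors' deposited table calls the locus. Col4a2 carries an asterisk in both panels, and Col17a1 is the highest gene in all 4 populations.

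With dorsomorphin for 48 h, set against cyclopamine, the type IV genes Col4a1 and Col4a2 were higher. Of 12 members tested, 2 were called higher with dorsomorphin, beside 1.26% of all 11505 tested loci, and 1 was called lower, beside 1.31%. Col4a1 was at 3.58 FPKM with dorsomorphin against 1.61 with cyclopamine, a 2.22-fold difference (adjusted p = 0.0170, authors' deposited table). Col4a2 was at 6.31 FPKM with dorsomorphin against 3.11 with cyclopamine, a 2.03-fold difference (adjusted p = 0.00479, authors' deposited table). Col12a1 was lower, at 55.2 FPKM with dorsomorphin against 78.4 with cyclopamine (adjusted p = 0.0438, authors' deposited table). Each of the 3 called loci shares its span with another symbol, which for Col12a1 is 4930562D21Rik.

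Other abundant members did not pass. Col17a1 was at 528.2 FPKM with dorsomorphin against 541.2 with cyclopamine, and Col7a1 at 40.9 against 41.0. Col18a1 stood at 45.0 against 33.2 FPKM, and did not pass (adjusted p = 0.0797, authors' deposited table). Col3a1 was at 2.30 against 0.111 FPKM and Col6a3 at 1.68 against 0.872, and neither passed. Among fibroblast markers in these cultures, Postn was called lower with dorsomorphin, at 15.3 against 34.9 FPKM (adjusted p = 0.00479, authors' deposited table). Vim (21.9 against 14.0 FPKM) and Fbln1 (7.37 against 5.37) did not pass, and Dcn (1.26 against 0.356), Dpt (1.11 against 0.218), Pdgfra (1.02 against 1.08) and Twist2 (0.593 against 0.894) were not tested. The 9 markers summed to 48.5 FPKM with dorsomorphin and 56.9 with cyclopamine, and their part in the values of Col3a1 and Col6a3 was not tested. The median log2 difference of the tested members was 0.20, beside -0.0196 for all tested loci.

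Of 19 tested loci of processing genes, 2 were called higher with dorsomorphin and 0 lower, beside 1.26% and 1.31% of all tested loci. They were P4ha1, a catalytic subunit of prolyl 4-hydroxylase, at 35.3 FPKM against 24.0 with cyclopamine, and Tll1 at 4.46 against 0.772. None of 4 tested receptor genes passed. Neither table of cultures holds a tissue population, and a difference between the drugs cannot be assigned to either drug without an untreated culture.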

How the data were processed

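Polyadenylated RNA of 21 mouse libraries was sequenced by the authors, and 3 tables of their comparisons were used. Per the file headers, the tables have the layout of a Cuffdiff gene table, with FPKM per population, a log2 fold change, a test score, a p-value and an adjusted p (q-value), all as deposited by the authors; the score was not used. Per the submitters' processing notes, the tools for the 3-population libraries included Cuffdiff, Cufflinks 2.2.1, HISAT 0.1.6 and StringTie 1.1.0, though TopHat2 stands in their description. For the culture libraries those notes name DESeq2 1.8.1, Subread 1.4.2 with featureCounts, and TopHat2 2.0.13, so the tool behind their p-values is not settled. All used GRCm38. Replicates were pooled by the authors, and depth per library is unknown, so no counting interval was made.

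Values were assigned by the population named on each line, repeated lines were dropped (Col3a1, Col7a1 and Col20a1 stand on 2 lines in the culture tables) and folds were turned so that CD34a6, HFSC, CD34+ or dorsomorphin is on top. HFSC is on top of CD34a6. The column 3C_HFSC was read as the CD34+ fraction. Ratios are of FPKM, and medians add 1 FPKM, which understates folds of low genes. The Benjamini-Hochberg step was tested on simulated data. Python 3 with pandas was used. Members and lists were chosen with earlier results of these data known. Named are collagens of at least 5 FPKM in a table or called at 1 FPKM or more, and up to 4 called genes of each pathway list per comparison, with the highest FPKM; others were chosen after their values were seen. Of the pathway lists, symbols were matched as the tables spell them. Levels are compared within a table only. One list of cell type markers is not reported here.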

Additional observations from a re-analysis of the deposited data

How the results depend on the processing

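Counts of called collagens stayed within 1.5 times the main count in 20 of 28 alternatives. In 23 of 25, the median log2 difference kept its sign and shifted by less than a 1.5-fold ratio. Such a shift can be large beside a small median. For CD34+ over CD34neg, the median of 0.37 became 0.78 with scaling and 0.0063 without members sharing a span. The alternatives outside these limits follow, and the cause was not tested unless named. Leaving out the 23 members whose locus span carries other symbols, an alternative chosen after seeing the data, left fewer genes to count: 9 called in CD34a6 against bulk, 6 in HFSC against bulk, 9 in HFSC against CD34a6, and 0 in each culture table. Without Col4a1 and Col4a2, also added later, the culture tables had 0 calls for CD34+ against CD34neg and 1 for dorsomorphin against cyclopamine. At an adjusted p under 0.01, 1 call was left with dorsomorphin. With FPKM scaled to the same sum in each population, the median log2 difference was 3.39 for CD34a6 over bulk, and for HFSC over bulk it turned to 0.32. Counting merged loci changed nothing, since no line joins a collagen with another symbol.

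No paired analysis was possible because the tables hold 1 value per population and none per replicate, so the replicate block and leaving out a replicate could not be run. Depth is unknown, and values under 1 FPKM are the least certain. A level near 0 in HFSC makes the large ratios of Col6a1, Col6a2 and Col1a2 imprecise. Which of CD34a6 and HFSC was cultured cannot be told from the labels.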
